A study of Homo sapiens with 12 samples.

Results

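H3K36me3 and H3K27me3 were set against each other along the autosomes of RWPE-1 cells, to see how near to each other these marks of active and of repressed chromatin lie and whether the answer changes with the length of sequence looked at. The comparison used the deposited peak lists of the 2 marks on chromosomes 1 to 22 in build hg19. It rests on 4 of the 12 libraries of the series, 2 replicates of H3K36me3 and 2 of H3K27me3, which the labels tie to 1 combined list per mark. Joining the peaks of a mark over gaps of up to 5000 bases gave 29596 H3K36me3 regions and 25626 H3K27me3 regions, 55222 of the 190512 regions that the same joining gave over the 5 marks of the series.

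RWPE-1 is a line of normal prostate epithelial cells immortalised with HPV18. All libraries came from cells of this line below passage 20, grown in a serum-free keratinocyte medium with bovine pituitary extract and EGF, and the labels name no treatment, so the comparisons are between marks. The other lists were of H3K4me3, H3K27ac and H3K4me1, and an input and a DNase library were not analysed here. Each mark has 1 list and no replicate values. The spread between replicates is therefore not known, regions and windows are not replicates, and no p-value is given. The lists hold no read counts and the depth behind them is unknown. The identity of the cells was not checked against marker genes, and regions are given by position only, since no hg19 annotation was used.

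H3K36me3 is the trimethyl mark on lysine 36 of histone H3. It is laid down by SETD2, which travels with elongating RNA polymerase II, and marks the bodies of transcribed genes. H3K27me3 is laid down on lysine 27 of the same histone tail by the Polycomb complex PRC2 and marks silent developmental genes and the chromatin around them. PRC2 is known to work poorly on a tail that already carries methylated lysine 36, so the marks are seldom found on the same tail. Both occur in the gene-rich parts of chromosomes.

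Both marks came as many short peaks that formed regions of a few kb. The H3K36me3 list held 112270 autosomal peaks over 108 Mb, or 3.76% of the 2880 Mb up to the last peak of each chromosome. The H3K27me3 list held 77756 peaks over 72.1 Mb, or 2.50%. The joined H3K36me3 regions had a median span of 1977 bases (quartiles 526 and 7892), and 45.9% of them held 1 peak. The H3K27me3 regions had a median span of 1679 bases (quartiles 509 and 5641), and 48.3% held 1 peak. In both marks a small number of regions held much of the covered sequence. The 1020 H3K36me3 regions with 20 kb or more covered held 30.4% of its covered bases, and the 444 such H3K27me3 regions held 22.2%.

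At the level of single bases the marks lay apart on every autosome. Their peaks shared 388 kb, which was 0.359% of the H3K36me3 bases and 0.539% of the H3K27me3 bases. Multiplying the covered shares of the marks on each chromosome gives 3.35 Mb, so the shared length was 0.116 of that product. The ratio was below 1 on all 22 autosomes. It was lowest on chromosome 22, at 0.00833, and highest on chromosome 4, at 0.377, with a median of 0.114. For other lists handled the same way, the ratio was 0.347 for H3K27me3 with H3K27ac, 0.351 for H3K27me3 with H3K4me1 and 3.91 for H3K27me3 with H3K4me3. H3K36me3 with H3K4me1 stood at 2.94. With 1 list per mark the differences between these pairs could not be tested.

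Joined regions of the marks seldom met. Of the H3K36me3 regions, 526 overlapped the span of an H3K27me3 region, 1.78% (95% Wilson interval 1.63 to 1.93, which treats regions as independent and covers counting error only). Of the H3K27me3 regions, 513 overlapped an H3K36me3 region, or 2.00% (1.84 to 2.18). Larger H3K27me3 regions met H3K36me3 regions of any size more often, with no allowance made for their longer spans. The share was 1.25% for the 12285 H3K27me3 regions with under 1 kb covered and 13.1% for the 444 with 20 kb or more. For H3K36me3 it did not follow size in this way, at 2.56% of the 12744 smallest and 1.57% of the 1020 largest regions. With both marks limited to regions with 5 kb or more covered, 0.235% of the H3K27me3 and 0.166% of the H3K36me3 regions overlapped. That limit also leaves fewer regions to meet, so these lower shares do not show that large regions avoid each other. These shares follow the joining and the score cut: over gaps of up to 20 kb the H3K36me3 share was 6.89%, and with peaks of a score of 100 or more it was 0.525%.

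The nearest region of the other mark was usually far beyond the joining distance. From an H3K36me3 region the median distance to the nearest H3K27me3 region was 96.9 kb (quartiles 39.1 and 201 kb), while the nearest H3K36me3 region lay at a median of 9.47 kb. From an H3K27me3 region the nearest H3K36me3 region lay at a median of 76.5 kb (quartiles 29.1 and 167 kb), and the nearest H3K27me3 region at 10.8 kb. Distances within a mark exceed 5 kb by construction. Few regions had the other mark at their edge, but few were far from it. Within 5 kb, 4.89% of H3K36me3 regions and 5.69% of H3K27me3 regions had a region of the other mark. Within 100 kb, 51.0% and 58.5% did, and within 500 kb, 95.7% and 97.1%. The median from H3K36me3 ranged over the chromosomes from 45.3 kb on chromosome 20 to 135 kb on chromosome 4, and that from H3K27me3 from 26.6 kb on chromosome 19 to 108 kb on chromosome 8. With both marks limited to regions with 5 kb or more covered, the medians were 315 kb and 176 kb. Fewer regions of each mark were then left to measure to.

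Measured from edge to edge, with no allowance for their longer spans, large regions lay nearer to the other mark than small ones. The H3K36me3 regions with 20 kb or more covered had an H3K27me3 region at a median of 58.8 kb, against 107 kb for those under 1 kb. The H3K27me3 regions with 20 kb or more covered had an H3K36me3 region at a median of 45.1 kb, against 92.5 kb for those under 1 kb. An H3K36me3 region lay within 10 kb of 27.3% of these large H3K27me3 regions and of 7.77% of the small ones.

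Along the chromosome, regions of a mark followed each other in runs. Of the 55200 pairs of neighbouring regions, 11064 joined different marks, or 20.0%. The numbers of regions of each mark per chromosome give 27214 such pairs for a random order, so the ratio was 0.407. It ran from 0.348 on chromosome 14 to 0.553 on chromosome 19 and was below 1 on every autosome. The ratio depends on the joining distance, since joining shortens runs of 1 mark, and was 0.219 with gaps of up to 1 kb and 0.816 with gaps of up to 20 kb. H3K36me3 formed 5540 runs with a mean of 5.34 regions and H3K27me3 formed 5546 runs with a mean of 4.62. Runs of 10 or more held 56.0% of the H3K36me3 regions and 47.4% of the H3K27me3 regions. The longest H3K36me3 run had 60 regions over 1.71 Mb of chromosome 22, from 40415741 to 42123045. The longest H3K27me3 run had 75 regions over 1.94 Mb of chromosome 17, from 31288940 to 33233322, in which peaks covered 120 kb.

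The sign of the relation changed between windows of 100 kb and of 1 Mb. The covered share of each mark was taken in fixed windows from position 0, and the values are descriptions over windows that share both libraries and lie side by side. Over 288007 windows of 10 kb, Spearman's rank correlation was -0.127 and Pearson's r -0.0681. Over 28811 windows of 100 kb the values were small and still below 0, at -0.0205 and -0.0508. Without the windows that held no peak of any of the 5 marks, the rank correlation was -0.334 at 10 kb and -0.118 at 100 kb. Over all 2894 windows of 1 Mb the rank correlation was 0.558 and r 0.280, and without those that held no peak 0.491 and 0.263. The finer series of window sizes placed the change of sign for both measures between 100 and 200 kb. The rank correlation was lowest at 20 kb, at -0.146, and was 0.134 at 200 kb, 0.381 at 500 kb, 0.682 at 2 Mb and 0.772 over the 588 windows of 5 Mb.

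**Figure D1:**
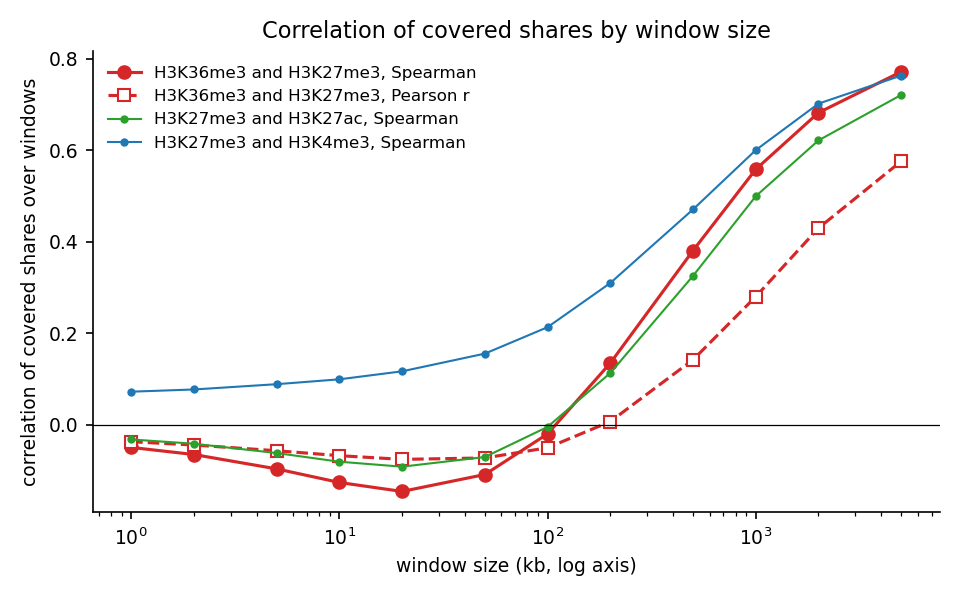
Correlation of covered shares (vertical axis) over autosomal windows of 1 kb to 5 Mb (horizontal log axis), for H3K36me3 with H3K27me3 as Spearman's rank correlation and Pearson's r, and for H3K27me3 with H3K27ac and with H3K4me3 as the rank correlation. Both curves of H3K36me3 with H3K27me3 lie below 0 up to 100 kb and above 0 from 200 kb, while the curve with H3K4me3 lies above 0 at every size.

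The pair of H3K27me3 and H3K27ac followed a similar course, and the pair of H3K27me3 and H3K4me3 did not. For H3K27me3 with H3K27ac, the rank correlation was -0.0813 over windows of 10 kb, -0.00523 over 100 kb and 0.499 over 1 Mb. For H3K27me3 with H3K4me3, the mark of promoters, it was 0.0989, 0.213 and 0.6001. These pairs share the H3K27me3 list, and their difference could not be tested.

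Presence alone, without the amount, gave the same order. Windows of 10 kb with both marks numbered 1530, which was 3.26% of the windows with H3K36me3 and 4.18% of those with H3K27me3. That number was 0.257 of the product of the shares of windows with each mark. The ratio was 0.996 over windows of 100 kb, of which 4605 held both marks, and lay on either side of 1 under other settings. It was 1.08 over windows of 1 Mb, and 1.02 there without the windows that held no peak of any mark. At 1 Mb, 2306 windows held both marks, 92.9% of those with H3K36me3 and 92.4% of those with H3K27me3, and a ratio cannot rise far above 1 when nearly all windows hold each mark. Peaks inside the 1 Mb windows nevertheless lay apart, with shared bases at 0.0835 of the sum over windows of the product of the covered shares. The ratio depends on the window, since only windows with both marks add to it and small ones are chosen for nearness. It was 0.209 in windows of 100 kb, 0.333 at 50 kb, 0.679 at 20 kb and 1.06 at 10 kb. In smaller windows it was 1.27 at 5 kb, 1.21 at 2 kb and 1.11 at 1 kb, so there the shared bases were not below the product. Of the 1530 windows of 10 kb with both marks, 483 held a shared base. Without the pair of 1 Mb windows richest in shared bases, on chromosomes 5 and 9, the 10 kb ratio was 0.973.

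Splitting the covariance of the 10 kb shares into 3 additive terms showed where each sign came from. The covariance over the 287200 windows of 10 kb in whole 1 Mb windows was -8.06 squared percentage points. The term between 1 Mb windows was 6.61, that between windows of 100 kb within 1 Mb was -9.57, and that between windows of 10 kb within 100 kb was -5.10. As correlations within each term these were 0.276, -0.285 and -0.0842. The correlation of 100 kb windows within 1 Mb was therefore of similar size to that between 1 Mb windows and of opposite sign, and a single correlation at 10 kb mixes both. Only 20.6% of the variance of H3K36me3 and 20.0% of that of H3K27me3 lay between 1 Mb windows.

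The density of the marks at a given distance showed the same turn. For pairs of 1 kb bins a fixed distance apart, the mean product of the covered shares was divided by the product of the chromosome means, so that 1 means the chromosome average. The ratio for H3K36me3 and H3K27me3 was lowest at 2 kb, at 0.0823. It was 0.227 at 10 kb, 0.423 at 20 kb and 0.821 at 50 kb, and reached 1 at 72 kb. At the larger distances given here up to 5 Mb, H3K27me3 was denser around H3K36me3 than along the chromosome as a whole, which includes sequence without any peak. The ratio was 1.17 at 100 kb, 1.49 at 200 kb and at its highest, 1.64, at 793 kb. It was 1.54 at 2 Mb, fell by 5 Mb to 1.15 and was 0.998 at 10 Mb. The distance at which the ratio reached 1 had a median of 67.5 kb over the 22 chromosomes, with 33 kb on chromosome 18 as the lowest and 178 kb on chromosome 19 as the highest. Chromosome 17 stood beside chromosome 19, at 176 kb. For H3K27me3 with H3K27ac the ratio was lowest at 3 kb, at 0.245, reached 1 at 98 kb and was highest at 844 kb, at 1.49. At 500 kb it was 1.43 for that pair, 1.41 for H3K27me3 with H3K4me3 and 1.65 for H3K36me3 with H3K4me1. For H3K36me3 with H3K27me3 it was 1.60 there, so values above 1 at such distances were not particular to this pair.

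**Figure D2:**
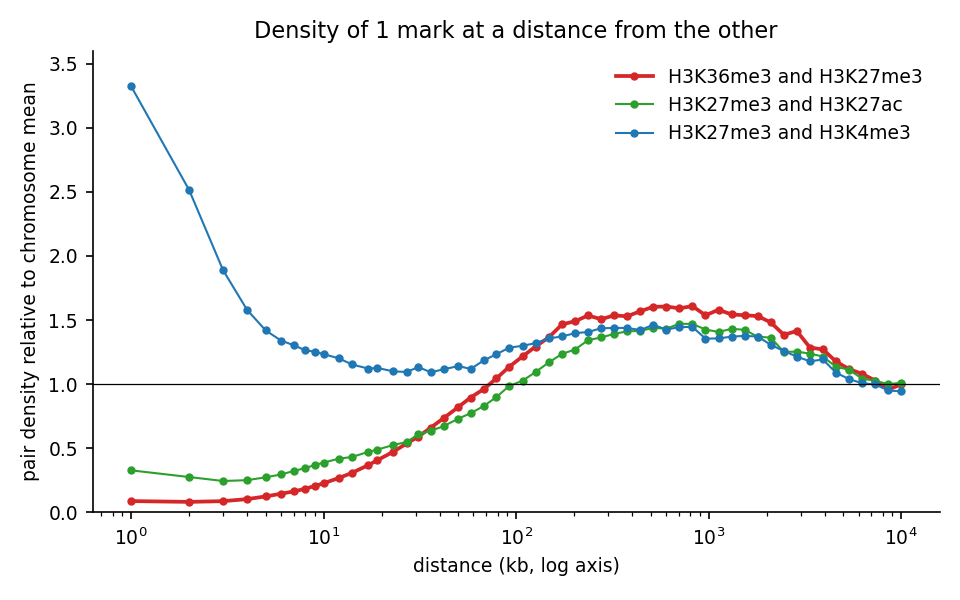
Pair density relative to the chromosome mean (vertical axis) against distance in kb (horizontal log axis), from 1 kb bins of the autosomes, for H3K36me3 with H3K27me3 and for 2 other pairs with H3K27me3. The curve of H3K36me3 with H3K27me3 rises from 0.0823 at 2 kb through 1 at 72 kb to 1.64 at 793 kb and is near 1 again at 10 Mb.

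By rank, chromosomes shared the direction at 10 kb and at 1 Mb but not at 100 kb. Within single chromosomes, the rank correlation over windows of 10 kb was below 0 on all 22, from -0.315 on chromosome 19 to -0.0471 on chromosome 4. Over windows of 1 Mb it was above 0 on all 22, with a median of 0.4996. Over windows of 100 kb it was below 0 on 15 and above 0 on 7. Pearson's r behaved otherwise at 100 kb and was below 0 on all 22, from -0.299 on chromosome 19 to -0.00358 on chromosome 4. The highest 1 Mb values were 0.820 on chromosome 21 (49 windows) and 0.757 on chromosome 9 (142 windows). The lowest were 0.0734 on chromosome 19 (60 windows) and 0.260 on chromosome 17 (82 windows). Pearson's r at 1 Mb was -0.116 on chromosome 19 and -0.0444 on chromosome 17, and above 0 on the other 20. All these values by chromosome keep windows without a peak of any mark, which were not left out by chromosome. Left out over all autosomes, they took the rank correlation to -0.118 at 100 kb and 0.491 at 1 Mb. The order of the chromosomes may therefore depend in part on empty sequence, which was not tested. Chromosome 19, the home of large clusters of KRAB zinc finger genes, had the most H3K36me3 of all autosomes, at 15.8% covered against 4.93% for H3K27me3. Chromosome 20 had the most H3K27me3, at 9.55% against 7.76% for H3K36me3, and a rank correlation of 0.538 at 1 Mb. Without chromosomes 17 and 19, a choice made after the values were seen, the rank correlation at 1 Mb was 0.555 and r was 0.303.

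**Figure D3:**
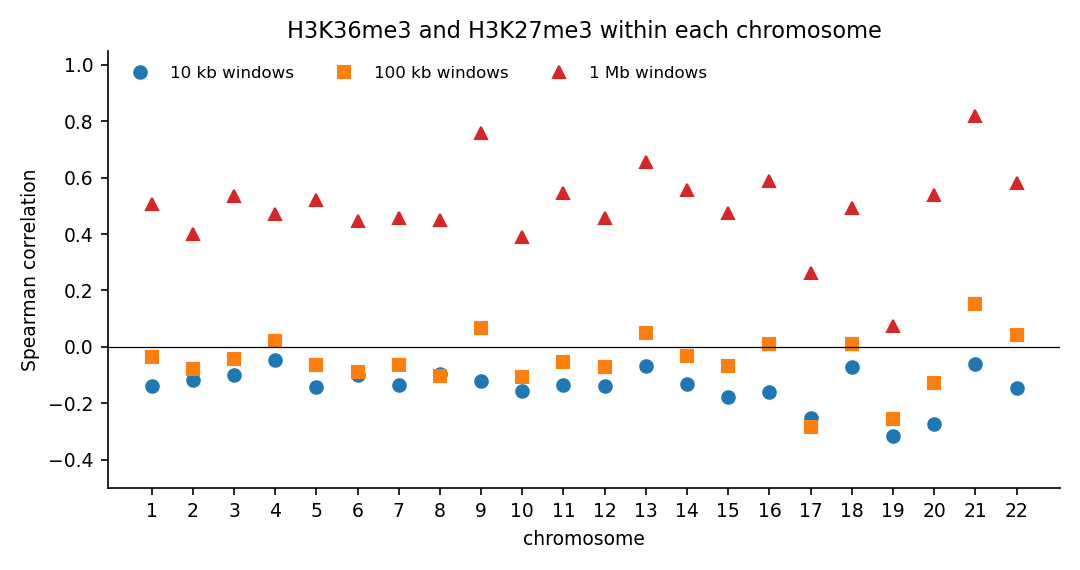
Spearman's rank correlation of the H3K36me3 and H3K27me3 covered shares (vertical axis) within each autosome (horizontal axis), over windows of 10 kb, 100 kb and 1 Mb. All 22 points of the 10 kb windows lie below 0 and all 22 of the 1 Mb windows above it, with chromosome 19 the lowest at both sizes.

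At 1 Mb, mean H3K27me3 was higher in each higher class of H3K36me3, but not in proportion to it. The 2894 windows were put in 10 classes of near-equal number by H3K36me3, and windows without H3K36me3 filled class 1 and some of class 2. The mean H3K27me3 share was 0.440% in the lowest class, 2.33% in class 5, 3.58% in class 8 and 5.01% in class 10. Mean H3K36me3 went from 0.949% in class 5 to 17.4% in class 10. The median of H3K27me3 went from 0.0331% in the lowest class to 3.20% in the highest. The spread within a class was wide, and in class 10 the quartiles were 1.19% and 6.09%. Ranked by H3K27me3 instead, mean H3K36me3 went from 0.902% in the lowest class to 7.16% in the highest. In the upper classes the gain was small, with 5.62%, 6.68% and 7.16% H3K36me3 in classes 8, 9 and 10 while mean H3K27me3 went from 2.97% to 12.8%.

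**Figure D4:**
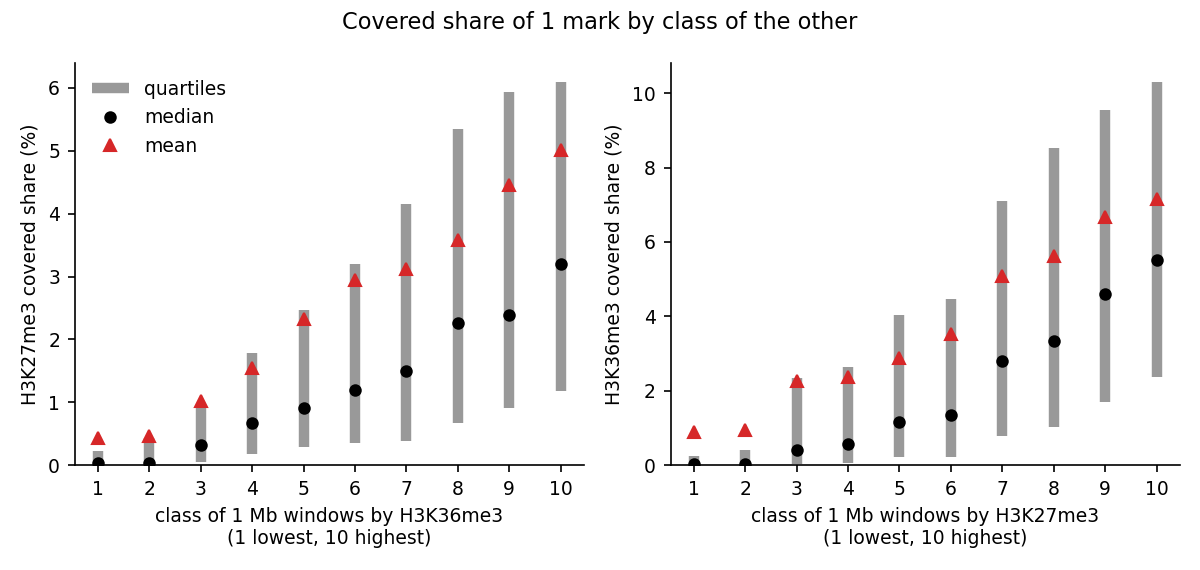
Covered share of H3K27me3 in 10 classes of 1 Mb windows ranked by H3K36me3 (left) and of H3K36me3 in classes ranked by H3K27me3 (right), in percent. Triangles are means, dots are medians and bars span the quartiles; on the left the means go from 0.440% in class 1 to 5.01% in class 10.

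The company at 1 Mb moved with the other marks. Mean H3K4me3 cover went from 0.248% in the lowest H3K36me3 class to 4.70% in the highest, and from 0.427% to 2.71% over the H3K27me3 classes. Given the ranks of H3K4me3 cover, the partial rank correlation of H3K36me3 and H3K27me3 over 1 Mb windows was 0.0762, against 0.558 without it. It was 0.289 given H3K27ac, 0.158 given H3K4me1 and 0.0164 given all 3 marks. Over windows of 100 kb the partial rank correlation given the 3 marks was -0.168, and over 10 kb -0.120. Given all 3 marks, none of these window sizes thus had a value above 0.0164.

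The gaps between neighbouring H3K36me3 and H3K27me3 regions often held a promoter mark. H3K4me3 touched 38.4% of the 1160 such gaps of 5 to 10 kb, against 14.5% of the 9746 gaps of that length between H3K36me3 regions and 5.44% of the 7210 between H3K27me3 regions. In gaps of 10 to 20 kb the shares were 44.0%, 24.9% and 9.53%. In gaps of 50 to 100 kb they were 57.0%, 58.1% and 29.1%, so that gaps between the marks and gaps within H3K36me3 no longer stood apart. H3K27ac, the mark of active promoters and enhancers, touched 38.3%, 32.5% and 3.51% of the gaps of 5 to 10 kb in the same order. H3K4me1, found at enhancers, touched 60.9%, 67.7% and 20.0%. For these 2 marks the mixed gaps were close to gaps within H3K36me3, and gaps within H3K27me3 were the ones with little of either. A gap was counted as touched when it shared at least 1 base with a peak.

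Inside the gaps, the active marks lay more on the H3K36me3 side than on the other. Of the 6401 gaps of 10 to 100 kb between the marks, each was cut into 10 equal parts from the H3K36me3 end to the H3K27me3 end. H3K4me3 covered 8.87% of the part beside H3K36me3, 1.79% of the sixth part and 1.21% of the seventh, and then 2.43% of the part beside H3K27me3. The autosomal average of H3K4me3 was 1.56%. H3K4me3 therefore had a second, lower maximum at the H3K27me3 end. H3K27ac fell from 14.1% beside H3K36me3 to 2.42% beside H3K27me3, without a second maximum. H3K4me1 fell from 13.6% to 4.64%. The autosomal averages were 3.85% for H3K27ac and 6.25% for H3K4me1. Of the H3K4me3 pieces in these gaps, 2870 lay in the H3K36me3 side and 1572 in the other, a share of 64.6% (95% Wilson interval 63.2 to 66.0, counting error only). The share was 65.9% for H3K27ac and 60.6% for H3K4me1, so many pieces of each mark lay in the H3K27me3 side.

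**Figure D5:**
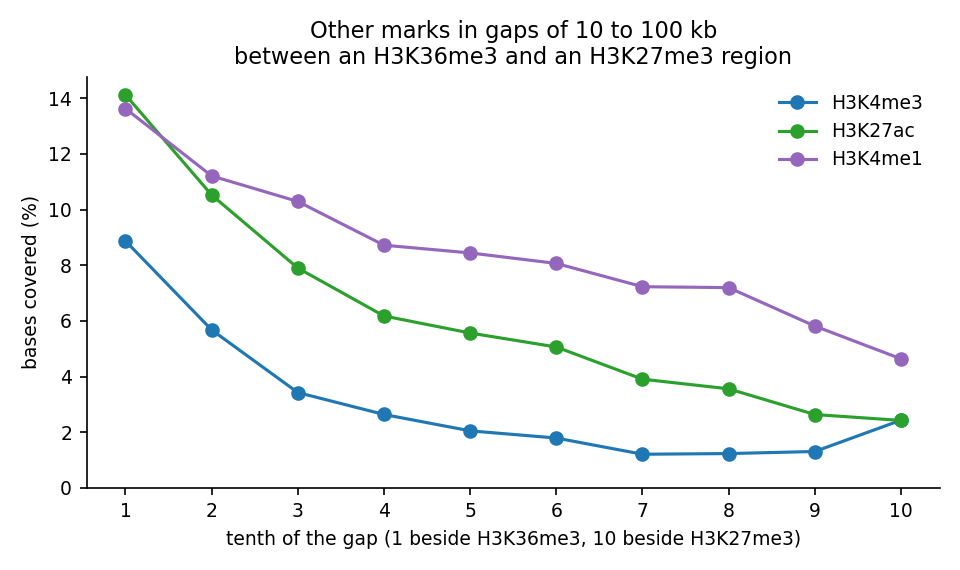
Percent of bases covered by H3K4me3, H3K27ac and H3K4me1 peaks (vertical axis) in 10 equal parts of the 6401 gaps of 10 to 100 kb between a neighbouring H3K36me3 and H3K27me3 region (horizontal axis, part 1 beside H3K36me3). All 3 marks are highest in part 1, and H3K4me3 alone turns up again in part 10, to 2.43%.

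At 4591 places neighbouring regions of different marks were at most 20 kb apart or overlapped, and at 12 of them both had 20 kb or more covered. Named boundaries were ranked by the smaller covered length, with chromosome 8 left out. The largest of these lay on chromosome 9, where an H3K27me3 region from 135340651 to 135467997 ended 899 bases before an H3K36me3 region from 135468897 to 135568519. The first had 104 kb covered by 31 peaks and the second 66.4 kb covered by 34 peaks. No H3K4me3, H3K27ac or H3K4me1 peak lay in the 899 bases. The H3K27me3 side held 2 H3K4me3 peaks and no H3K27ac peak, and the H3K36me3 side held 1 H3K4me3 and 2 H3K27ac peaks. On the same chromosome, H3K36me3 from 140603673 to 140732239 was followed after 12.9 kb by H3K27me3 from 140745131 to 140833710. There too the gap was free of the other marks.

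The boundaries on chromosome 20 were among those with active marks in the gap. Of the first 10, 5 had H3K4me3 in the gap and the same 5 had H3K27ac, while the boundary at rank 3 is an overlap and has no gap. From 35975089 to 36033027, H3K36me3 had 41.3 kb covered, and H3K27me3 began 3597 bases further and ran from 36036625 to 36110932 with 50.0 kb covered. The gap held 1 peak each of H3K4me3, H3K27ac and H3K4me1. The second place on chromosome 20 had H3K27me3 from 60653353 to 60694483 and H3K36me3 from 60699384 to 60779412, with 4.90 kb between them and 1 H3K4me3 and 1 H3K27ac peak there. Further boundaries among the first 10 had H3K36me3 from 135138218 to 135229180 and from 139099590 to 139133968 on chromosome 9, from 5413694 to 5485519 and from 34845219 to 34898800 on chromosome 17, and from 178981484 to 179049909 on chromosome 5. The remaining one, at rank 3, is an overlap on chromosome 9 that is described with the shared segments. The H3K27me3 region held H3K4me3 peaks at 7 of these 10 and an H3K27ac peak at 1, while the H3K36me3 region held H3K4me3 peaks at 8 and H3K27ac peaks at all 10. Among all regions with 20 kb or more covered, H3K4me3 touched 58.8% of the H3K27me3 and 59.7% of the H3K36me3 regions, and H3K27ac touched 17.8% and 83.3%.

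The 1 Mb windows richest in both marks give examples of company at this scale. Ranked by the smaller of the 2 covered shares, with chromosome 8 left out, the first 10 lay on chromosome 20 (4 windows), chromosome 9 (3) and chromosome 5 (3). The first, on chromosome 9 from 136000001 to 137000000, had 24.9% H3K36me3 in 16 regions and 27.9% H3K27me3 in 23 regions, with 1757 bases in common. The window before it, from 135000001 to 136000000, had 21.8% and 32.8% and no shared base. On chromosome 20 from 47000001 to 48000000 the marks covered 20.0% and 20.1% of the window, in 6 and 23 regions, again with no shared base. On chromosome 5 from 176000001 to 177000000 the shares were 21.7% and 18.0%, also with none, and the window on chromosome 20 from 30000001 had none either. The rest of the 10 did share bases, with 749 and 713 on chromosome 20, 2772 on chromosome 9 and 4344 and 58438 on chromosome 5. The window with 58438, from 140000001 to 141000000, is described with the shared segments. The medians over all 1 Mb windows were 1.35% for H3K36me3 and 0.810% for H3K27me3, and both marks were above 5% in 231 windows. Chromosomes 9 and 20 also had high chromosome-wide cover of both marks. Without them the rank correlation at 1 Mb was 0.537 and r was 0.237, against 0.558 and 0.280 over all autosomes. The peak lists do not tell how many copies of these windows the cells hold, and an effect of copy number was not tested.

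Windows richest in 1 mark were of different kinds. Outside chromosome 8, the 5 windows with most H3K36me3 had at most 1.48% H3K27me3. The first was on chromosome 9 from 131000001 to 132000000, with 49.2% H3K36me3 and 1.01% H3K27me3. The other 4 were on chromosome 19, and in the first of them, from 58000001 to 59000000, H3K36me3 covered 44.0% and H3K27me3 0.168%. This window had 13.5% H3K4me3 and 9.25% H3K27ac. Of the 5 windows with most H3K27me3 outside chromosome 8, 2 held a good deal of H3K36me3 as well. On chromosome 9 from 138000001 to 139000000 H3K27me3 covered 44.5% and H3K36me3 12.4%, and on chromosome 20 from 57000001 to 58000000 the shares were 38.7% and 8.18%. The windows on chromosome 20 from 59000001, on chromosome 16 from 86000001 and on chromosome 17 from 77000001 had 0.573% to 1.32% H3K36me3.

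Sequence covered by both marks was rare and unevenly spread. There were 546 shared segments with a median of 510.5 bases, and 98 were longer than 1 kb. In 275 of them, or 50.4%, an H3K36me3 peak lay inside an H3K27me3 peak, in 62 the reverse held, and in 209 the peaks overlapped at their edges. The H3K36me3 peaks with a shared base had a median score of 80.3, against 105 for the others, where the score is the authors' value per peak. The H3K27me3 peaks with a shared base had the higher scores, with a median of 146 against 89.0. They were also wider, with a median of 1032 against 594 bases, and no allowance was made for width. H3K36me3 peaks had a median width of 638 bases with and without a shared base. H3K4me3 touched 23.3% of the shared segments, against 3.84% of all H3K36me3 peaks and 5.79% of all H3K27me3 peaks, which are of other widths. H3K27ac touched 6.41% of them, against 10.1% and 1.89%, and H3K4me1 17.4%, against 33.4% and 3.81%. For these 2 marks the shared segments thus lay between the lists.

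A pair of 1 Mb windows held 23.7% of the shared bases, and they were singled out after the values were seen. On chromosome 5 from 140000001 to 141000000 the marks had 58.4 kb in common, 15.0% of the total, in 61 segments with a median of 1068 bases. In 47 of these an H3K36me3 peak lay inside an H3K27me3 peak, 6 touched H3K4me3 and none touched H3K27ac. On chromosome 9 the longest shared segment, from 115820874 to 115853112, was 32239 bases long. It was the overlap of 1 H3K36me3 peak of 32259 bases and 1 H3K27me3 peak of 33238 bases, against median widths of 638 and 595 bases in the lists, and no other mark touched it. The peak lists do not tell whether such wide overlaps are both marks on the same chromatin, nor how many copies of the sequence the cells hold, and this limit holds for the next segments and for the boundary at rank 3. The next longest shared segments outside chromosome 8 were on chromosome 10 from 135477890 to 135489030 (11141 bases), on chromosome 1 from 149284316 to 149289205 (4890 bases) and from 148948879 to 148951852 (2974 bases), and on chromosome 16 from 21846035 to 21848970 (2936 bases). H3K4me3 touched the second of these 4 and none of the others. Without the pair of windows, the shared length was 0.0890 of the product of the covered shares.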

How the data were processed

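Peaks of 5 histone marks in RWPE-1 cells were analysed, with 2 libraries per mark combined by the authors into 1 list. Bowtie2, MACS 1.4, CASAVA 1.8.2 and hg19 are named in the submitters' processing notes; settings, control and whether reads or peaks were combined are unstated in the labels and headers. A caller for narrow peaks splits broad marks, hence the joining. The deposited score per peak is not defined by a header or label, has a lowest value of 50 and was used only to filter and describe peaks within a list. Depth is unknown.

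Positions are counted from 1. Windows started at position 0 and ended at the last peak of any mark, and the last window was divided by its full length. Neighbouring pairs were compared with 2 times the product of the numbers of regions of each mark over their sum, per chromosome. Named windows and boundaries followed a fixed ranking (smaller covered share or length of the 2 marks, most of 1 mark, longest shared segment), without chromosome 8. The comparison, the ranking and the gap classes were chosen with earlier results of these data known, and places singled out beyond the ranking are named as such. No gene names were matched, since the gene and promoter tables are of GRCh38 and the peaks of hg19. No test was possible with 1 list per mark. Alternatives were other joining distances, a score of at least 100, larger regions, other windows and other sets of chromosomes. The code was checked on simulated lists with known overlaps and correlations. Python 3.11.15, numpy 2.4.6, scipy 1.17.1 and matplotlib 3.10.9 were used.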

Additional observations from a re-analysis of the deposited data

How the results depend on the processing

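No paired analysis was possible because each mark has 1 combined list and no replicate values. For the window correlations and presence ratios, each chromosome was left out in turn. Values were called moved when they changed by more than the SD over the 22 chromosomes (for shares, by more than the width of the Wilson interval to 1 side). Of 144 alternative values, 113 stayed within that spread, 24 moved and 7 changed direction. The cause was not tested. The spread is between single chromosomes, so a pooled value with 1 chromosome left out could hardly exceed it. Staying within it is therefore little support, and some values that did so still changed. Base-level overlap was 0.0547 of the product with gaps filled, against 0.116. At 100 kb r was -0.0252 at a score of 100 or more, against -0.0508. Over windows of 500 kb r was 0.142, against 0.280 at 1 Mb.

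Overlapping regions followed the settings most. With gaps of up to 1 kb, up to 20 kb, a score of 100 or more and 5 kb or more covered, the H3K36me3 share was 0.789%, 6.89%, 0.525% and 0.166%, and the H3K27me3 share 1.04%, 6.99%, 0.719% and 0.235%. The median distance from H3K36me3 was 68.4 kb with gaps of up to 20 kb, 137 kb at a score of 100 or more and 315 kb with 5 kb or more covered. From H3K27me3 it was 102 kb and 176 kb under the last 2. The neighbour ratio was 0.219 and 0.816 with gaps of up to 1 and 20 kb and 0.541 with 5 kb or more covered.

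Leaving out windows without a peak of any mark gave r = -0.155 and a rank correlation of -0.334 at 10 kb. The rank correlation was then -0.118 at 100 kb and 0.491 at 1 Mb. The presence ratio was then 0.131 at 10 kb and 1.02 at 1 Mb. At 100 kb, r was below 0 under every setting that kept this window, while the rank correlation and the presence ratio changed direction under some. The rank correlation was 0.00682 at a score of 100 or more, and over windows of 200 kb r was 0.00640 and the rank correlation 0.134. The presence ratio at 100 kb was 0.871 without windows that held no peak, 1.006 with shifted windows, 1.03 at a score of 100 or more, 1.008 with chromosome X and at most 1.004 with a chromosome left out. Other window sizes moved the rank correlation to -0.0501 at 1 kb, 0.381 at 500 kb and 0.772 at 5 Mb, and r to 0.576 at 5 Mb. With each chromosome left out, the rank correlation at 1 Mb stayed between 0.545 and 0.569.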
